A study of Mus musculus with 9 samples.

Results

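The introns described here belong to 10 genes that encode proteins related to the SR family of splicing factors: Srrm1, Srrm2, Son, Pnn, Acin1, Bclaf1, Thrap3 and Arglu1, together with Tra2a and Tra2b. All introns listed under these gene names in the authors' deposited table were taken, which gave 66 of 22228 introns. Polyadenylated RNA had been sequenced from the mouse line v6.5, which consists of embryonic stem cells and was grown on gelatin. The groups were KH-CB19 at 2 h, KH-CB19 at 0 h, DMSO at 2 h and DMSO at 0 h, with 2 libraries each and 8 libraries in all. KH-CB19 is an inhibitor of the Clk kinases and was dissolved in dimethyl sulfoxide (DMSO), and the DMSO groups received the solvent alone. Cells of the 0 h groups were harvested directly after the addition. An untreated library was not analysed here.

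SR and SR-related proteins carry stretches rich in arginine and serine, which Clk and SRPK kinases phosphorylate, and the phosphorylation controls their place in nuclear speckles and their part in splicing. Many of their genes are known to regulate their own messages through alternative exons that carry a premature stop codon and send the transcript to nonsense-mediated decay (NMD), and through introns that are kept in the nucleus. Detained introns are the series' name for introns that remain in polyadenylated RNA and are removed late. The question of the series was how such introns respond when Clk kinases are inhibited.

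The authors classed 18 of the 66 introns (27.3%) as detained, against 3454 of 22228 introns (15.5%) overall. These 18 lay in 9 of the 10 genes, with 3 each in Acin1 and Son, 2 each in Arglu1, Bclaf1, Srrm1, Srrm2 and Thrap3, and 1 each in Tra2a and Tra2b. Pnn had a single intron in the table and it was not detained. The table holds group means made by the authors, so no spread between the libraries of a group can stand beside any value, and every adjusted p is theirs. In the 0 h groups the observed means summed to 1002850 reads over the 18740 introns with a value with KH-CB19. With DMSO they summed to 1286589 reads over 21568 introns. These means are not scaled for depth, and the sums do not cover the same introns. RNA integrity numbers of the 8 libraries ran between 8.8 and 9.4, and the lowest belonged to KH-CB19 at 2 h. Among 10 markers of embryonic stem cells, 9 had an intron in the table. Of 10 markers of germ layers and trophoblast none had one, and of 8 fibroblast markers only Fn1 did.

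Most detained introns of these genes shared a position in the gene. The genes were chosen with earlier results of these data known, so the trait may not be independent of the choice. Introns were matched to the GENCODE M21 annotation (build GRCm38) of the same gene by their length, and the introns of 9 genes could be placed. Of the 18 detained introns, 15 (83.3%) made up only a part of a longer intron that separates coding exons in the annotated coding transcripts. In all other genes this was so for 241 of 3021 placed detained introns (7.98%). Among placed introns that were not detained, 8 of 47 in the 9 placed genes and 642 of 15159 (4.24%) in all other genes were such parts. These shares are descriptions, and introns of 1 gene are not independent. The 15 parts came from 11 longer introns in 9 genes, and 14 of them shared one end with the longer intron.

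**Figure D1:**
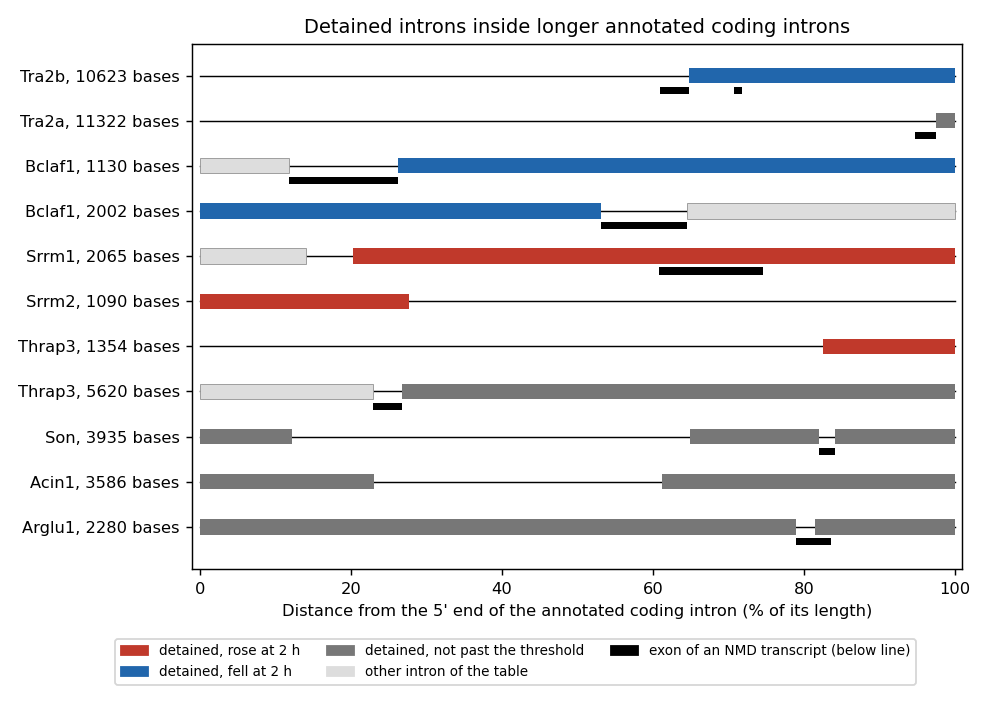
Each line is an annotated coding intron of the named gene, with its length in bases, drawn from its 5′ end (left) to its 3′ end as a percentage of its length. Coloured bars are the detained introns it holds (red rose, blue fell, grey not past the threshold at 2 h), pale bars are other introns of the table, and black bars under the line are exons of transcripts annotated as NMD targets, which lie in 8 of the 11 longer introns.

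Exons of transcripts annotated as targets of NMD lay in 8 of those 11 longer introns, and 7 of the 15 detained parts began or ended exactly at such an exon. Counted by introns of the table, the longer intron held an NMD exon for 11 of the 15 detained parts, against 53 of 241 detained parts in other genes. It did so as well for all 8 member parts that were not detained, so within these genes the trait does not set the detained introns apart. In Tra2b, whose protein binds purine-rich exonic enhancers, intron 2 began where an NMD exon of 397 bases ended, and it ran for 3747 bases to the 3′ end of a coding intron of 10623 bases. Intron 2 of Tra2a, the gene of the related protein, took up the last 281 bases of a coding intron of 11322 bases that also holds an NMD exon. In Bclaf1, intron 8 ended at an NMD exon of 228 bases, and intron 17 began at the end of another one of 162 bases. In Son, introns 15 and 16 lay on either side of an NMD exon of 80 bases. Intron 3 of Arglu1 ended at an NMD exon of 108 bases, and intron 6 of Thrap3 began at one of 212 bases. Intron 4 of Srrm1 was different, since an NMD exon of 282 bases lay inside it. A shorter NMD exon of 114 bases also lay inside intron 2 of Tra2b. Exons of other annotated transcripts that lie within the longer introns overlapped detained parts too. An exon of a processed transcript covered 624 of the 1646 bases of Srrm1 intron 4 (37.9%), and an exon of a retained-intron transcript covered 801 bases of Tra2b intron 2 (21.4%). All 672 bases of Son intron 15 lay inside an exon of another retained-intron transcript. Processed transcripts also covered 315 bases of Arglu1 intron 3, 35 of Son intron 15, 30 of Acin1 intron 16 and 6 of Thrap3 intron 9. The NMD exon of 108 bases in Arglu1 covered 50 of the 423 bases of its intron 4. Reads over those exons and reads over the intron around them cannot be told apart in these values.

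GENCODE M21 transcripts span 6 of the detained parts, so that their first and last 30 bases could be read on build GRCm38. They are shown so that the bases at the ends of these intervals can be compared with splice sites. The bases in capitals are the first and last pair of each interval, and all sequences run 5′ to 3′ along the transcript. Intron 4 of Srrm1 lies on the minus strand at chr4:135344670-135346315, intron 17 of Bclaf1 on the plus strand at chr10:20332558-20333391, and those of Arglu1 on the minus strand at chr8:8681949-8683747 (intron 3) and chr8:8681468-8681890 (intron 4). The Son introns lie on the plus strand at chr16:91671466-91671947 (intron 12) and chr16:91674023-91674694 (intron 15).
Srrm1 intron 4, first 30 bases: GTgagttgtgtaaagtggccgaacatcaac
Srrm1 intron 4, last 30 bases: tgtttttcttcctgtcatgtctttttgcAG
Bclaf1 intron 17, first 30 bases: GTaagaactttggttcgttatgcttgattc
Bclaf1 intron 17, last 30 bases: aaaaactagcacgtttcttttatctttcAG
Arglu1 intron 3, first 30 bases: GTaacgctcggtcgtttggaaagtagagac
Arglu1 intron 3, last 30 bases: gccaagctaacagtacaaatcattttaaAG
Arglu1 intron 4, first 30 bases: GTaaatactcaacttttaatgctgattaaa
Arglu1 intron 4, last 30 bases: tctaacatcgcaacatgtcctcccctttAG
Son intron 12, first 30 bases: GTacagactgtcaacaaatacaaagctaag
Son intron 12, last 30 bases: atattccattcctgtccttgtcctctttAG
Son intron 15, first 30 bases: GTaagtaaagtcattctaggtgtgtagcat
Son intron 15, last 30 bases: ttcacccctctgtatggaaacttgtttcAG

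All 6 intervals began with GT and ended with AG, the usual ends of introns, and this includes the inner ends that do not coincide with an end of the longer coding intron. Except for intron 4 of Srrm1, these intervals are themselves annotated introns, so the usual ends were to be found there and add little. Intron 4 of Srrm1 is not itself an intron of any GENCODE M21 transcript of the gene, yet its ends carried the same bases. Pyrimidines made up 23 of the last 30 bases in Srrm1 intron 4 and in Son intron 12, and 13 of the last 30 in Arglu1 intron 3. The GC content of the 6 intervals lay between 35.0% in Srrm1 intron 4 and 41.7% in Son intron 12.

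Intron 17 of Srrm2, which encodes a large scaffold protein of nuclear speckles, was an exception in kind. It is 132 bases long, a multiple of 3, and falls inside the long exon of 6569 bases that separates introns 16 and 18, which the coding transcript Srrm2-201 does not splice. The sequence at chr17:23819666-23819797 (GRCm38, plus strand) is shown whole because the highest ratio of observed to expected reads rests on it.
Srrm2 intron 17: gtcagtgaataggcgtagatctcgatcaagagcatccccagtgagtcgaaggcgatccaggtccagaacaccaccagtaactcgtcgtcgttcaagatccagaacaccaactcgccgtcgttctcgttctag

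It began with GT and ended with AG as well, but reads that stem from the unspliced exon and reads of a transcript that could splice this stretch cannot be told apart. Its GC content was 53.0%, above that of the 6 intronic intervals. The remaining detained introns were intron 26 of Acin1, which is a whole coding intron of 707 bases, and intron 21 of Srrm1. Of the 18 detained introns, 7 had a pair of ends that is not an annotated intron: introns 4 and 21 of Srrm1, 17 and 21 of Srrm2, 9 of Thrap3, 2 of Tra2a and 17 of Acin1.

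In the 0 h groups, the detained introns held more reads than expected and most other introns of the same genes did not. All 18 were above the authors' expected counts at adjusted p below 0.05 in the KH-CB19 group and in the DMSO group at 0 h. How the authors assigned the class is not known here, and it may rest on the same ratio, so this only describes the class. The median log2 ratio of the 18 was 1.43 with KH-CB19 and 1.39 with DMSO. Both were below the medians of all detained introns, 1.81 and 1.83. Among all introns with a value, 27.6% were above expectation with KH-CB19 and 28.2% with DMSO, and 8.93% and 10.9% were below it. Of the 48 member introns that were not detained, 43 had a value with KH-CB19, and of these 4 were above and 20 below. With DMSO 9 of the 48 were above and 22 (45.8%) below. The median log2 ratio of the member introns that were not detained was −0.48 with KH-CB19 and −0.61 with DMSO. For such introns over all genes it was 0.34 and 0.30. Where the expected counts add up to the observed reads of a gene, as in Arglu1 below, reads in excess in a detained intron lower the ratios of the others. A detained intron lay in 9 of the 10 genes, and these medians were not matched for that. In bulk RNA, an intron kept by more transcripts and a larger number of transcripts cannot be told apart, and the expected count carries the second only as far as the authors built it in. Nor can fewer cells and less RNA per cell be told apart. Within each of these genes with more than 1 listed intron, thus without Pnn, the expected counts followed the order of intron length.

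**Figure D2:**
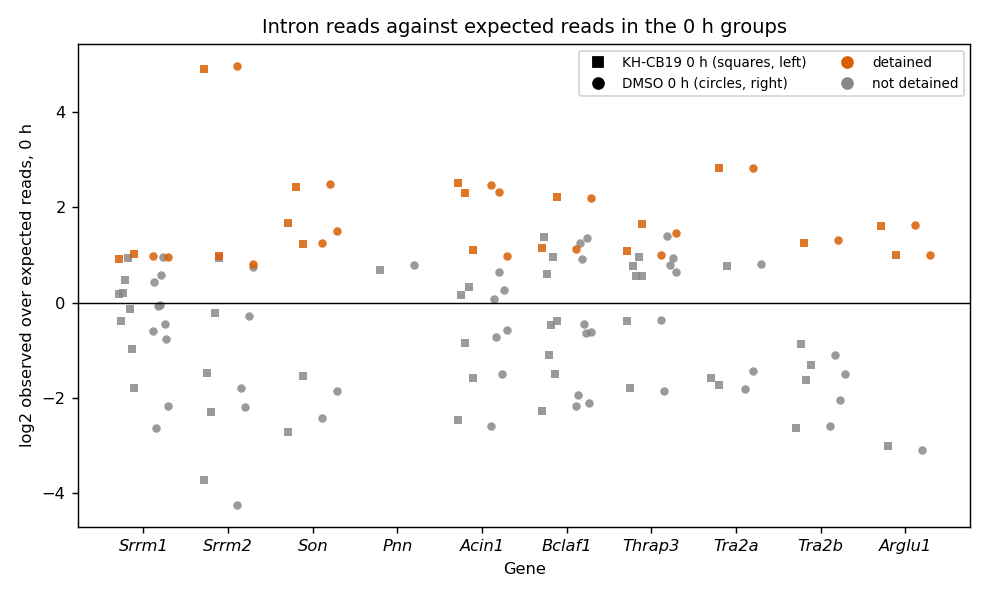
The log2 ratio of observed to expected reads at 0 h is plotted for every intron with a value, by gene, with the KH-CB19 group as squares on the left and the DMSO group as circles on the right. Detained introns (orange) all lie above 0, up to 4.90 with KH-CB19 and 4.97 with DMSO in Srrm2, while other introns (grey) reach down to −3.73 and −4.25 in the same gene.

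Srrm2 had the widest contrast between introns. The authors' deposited table gave intron 17 means of 1212 observed and 40.5 expected reads in the KH-CB19 group, and 1647 observed and 52.5 expected in the DMSO group, a log2 ratio of 4.90 and 4.97. That stretch held 64.8% of the reads of all listed Srrm2 introns with KH-CB19 and 68.2% with DMSO. Intron 21 had 201.5 observed and 102 expected reads with KH-CB19 and 233.5 and 132.5 with DMSO. Intron 3 was the lowest of all 66, with 15 observed and 198.5 expected reads in the KH-CB19 group and 13.5 and 257 in the DMSO group (log2 ratios −3.73 and −4.25, the authors' deposited table). Among the introns without the detained class, intron 20 was the highest in Srrm2, at 0.93 and 0.74 (log2 ratios of the authors' deposited table).

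In Son, a speckle scaffold that aids the splicing of weak introns, the 3 detained introns took 92.4% of the reads of its 5 listed introns with KH-CB19 and 93.0% with DMSO, on 34.5% of the length. Intron 15 led with 280.5 observed and 52 expected reads in the KH-CB19 group and 469 and 83 in the DMSO group. Introns 12 and 16 were less far above expectation, at 1.67 and 1.23 with KH-CB19 and 1.26 and 1.51 with DMSO (log2 ratios of the authors' deposited table). The whole coding introns 4 and 17 were below expectation in both groups (−2.72 and −1.54 with KH-CB19, −2.42 and −1.85 with DMSO in the authors' deposited table).

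Arglu1, a coactivator of nuclear receptors that also acts in splicing, had the detained intron with the most reads of the 18 in both groups. The authors' means for intron 3 were 1261 observed and 411 expected reads with KH-CB19 and 1799.5 and 581.5 with DMSO. Intron 4 had 358 and 179 reads with KH-CB19 and 504 and 254 with DMSO. Per kb these were 701 and 846 reads with KH-CB19 and 1000 and 1191 reads with DMSO. Intron 8, the long whole intron of the same gene, held 10.4 reads per kb with KH-CB19 and 13.9 with DMSO, and its log2 ratio was −3.01 and −3.10 in the authors' deposited table. The 2 adjoining parts of 1 coding intron were thus high while the next intron of the gene was among the lowest. The 3 expected counts of Arglu1 add up to its observed reads, 1764.5 with KH-CB19 and 2497.5 with DMSO. An excess in some of its introns therefore forces a ratio below 0 in another, and only the reads per kb are free of this. In other genes, such as Srrm2, the listed expected counts do not add up to the observed reads.

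The Tra2 genes showed the same split. In Tra2b the expected counts add up to the observed reads with KH-CB19 (361) and nearly so with DMSO (594). The 2 sides of its split are therefore not independent. Intron 2 of Tra2b had 270.5 observed and 114 expected reads in the KH-CB19 group and 466 and 187.5 in the DMSO group, and the log2 ratios of the authors' deposited table were 1.25 and 1.31. Its other 4 introns were all below expectation in both groups, the lowest being intron 5 (−2.63 and −2.58) and the highest intron 7 (−0.87 and −1.11) in the authors' deposited table. Intron 2 of Tra2a had 155.5 observed and 22 expected reads with KH-CB19 and 208 and 29.5 with DMSO, a log2 ratio of 2.82 in either group. In Tra2a intron 8 was the lowest of the others with DMSO (−1.60 with KH-CB19, −1.82 with DMSO) and intron 11 the highest (0.77 and 0.82) in the authors' deposited table.

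Acin1 encodes a subunit of the ASAP complex, which joins the exon junction complex, and its introns 16 and 17 are both parts of 1 coding intron of 3586 bases. They had 269 and 312 observed reads with KH-CB19 and 328 and 395 with DMSO, at log2 ratios between 2.30 and 2.50 in the authors' deposited table. Intron 26 was nearer to expectation (1.11 with KH-CB19 and 0.97 with DMSO in the authors' deposited table). Of the other introns, number 4 was the lowest (−2.46 and −2.60) and number 22 the highest (0.32 and 0.65). In the authors' deposited table the adjusted p of intron 22 was 0.438 with KH-CB19 and 0.0391 with DMSO, and whether the groups differ there was not tested.

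Bclaf1 and Thrap3 are paralogous RS-rich proteins that act in splicing and in the response to DNA damage. Intron 17 of Bclaf1 had 160.5 observed and 34.5 expected reads with KH-CB19 and 249.5 and 54.5 with DMSO, and intron 8 had 88 and 39.5 with KH-CB19 and 136 and 62.5 with DMSO. In the authors' deposited table the lowest Bclaf1 intron was intron 2 (−2.28 and −2.17). The highest without the detained class with DMSO was intron 14 (0.95 with KH-CB19, 1.36 with DMSO), the other part of the coding intron that holds intron 17. With KH-CB19 intron 7, named after its values were seen, was above it at 1.39. Thrap3 had 253.5 observed and 119.5 expected reads in intron 6 with KH-CB19 and 326 and 162.5 with DMSO. Intron 9 of Thrap3 had 69.5 and 22 reads with KH-CB19 and 83 and 30 with DMSO. Of the other Thrap3 introns in the authors' deposited table, intron 12 was the lowest (−1.79 and −1.86). Intron 17 was the highest with DMSO (0.78 with KH-CB19, 1.41 with DMSO), while intron 20 was the highest with KH-CB19 (0.95).

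Srrm1, a splicing coactivator that also binds the exon junction complex, reached the lowest top ratio of the 9 genes with a detained intron. Intron 4 had 106 observed and 56.5 expected reads with KH-CB19 and 150.5 and 76 with DMSO, and intron 21 had 134.5 and 66 with KH-CB19 and 172 and 89 with DMSO. Intron 25 was not classed as detained and yet reached similar log2 ratios, 0.93 with KH-CB19 and 0.96 with DMSO in the authors' deposited table. Intron 9 was the lowest of the gene with DMSO (11 observed and 68 expected reads), and the authors gave no KH-CB19 value for it because of low coverage. Intron 6 of Pnn, whose protein forms the PSAP complex with Rnps1 and Sap18, had 32 observed and 20 expected reads with KH-CB19 and 39 and 22.5 with DMSO, and neither log2 ratio of the authors' deposited table passed (0.68 at an adjusted p of 0.248 and 0.79 at 0.123).

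Among the placed introns of these genes, parts of longer coding introns had higher median ratios than whole ones, and most parts were detained. Parts of longer coding introns had a median log2 ratio of 1.12 with KH-CB19 (22 introns) and 1.26 with DMSO (23 introns), and none of them passed below expectation with KH-CB19 or with DMSO. Of such parts over all genes, 100 of 826 (12.1%) passed below it with KH-CB19 and 132 of 893 (14.8%) with DMSO. Whole coding introns of the 9 placed genes had a median of −0.92 with KH-CB19 (32 introns) and −0.75 with DMSO (36 introns). Detained introns made up 15 of the parts in these genes but only 1 of the whole coding introns. The contrast between the kinds therefore largely repeats that between the classes, which may rest on the same ratio. Parts without the detained class ranged from −0.39 to 0.95 with KH-CB19, where they had a value, and from −0.60 to 1.41 with DMSO. Over all genes the kinds lay close together, with medians of 0.53 for parts and 0.60 for whole introns with KH-CB19, and of 0.49 for parts and 0.52 for whole introns with DMSO. Introns 25 of Srrm1, 20 of Srrm2, 20 of Thrap3 and 11 of Tra2a, named after their values were seen, were the 4 that passed above expectation in both groups without the detained class.

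After 2 h of Clk inhibition, 6 of the 18 detained introns (33.3%) had changed at adjusted p below 0.05, and both directions were present in equal number. Intron 4 of Srrm1, intron 21 of Srrm2 and intron 9 of Thrap3 rose, and introns 8 and 17 of Bclaf1 and intron 2 of Tra2b fell. None of the 3 that rose has the ends of an annotated intron, whereas all 3 that fell do, and 4 of the 12 others do not. Of all detained introns 9.64% changed, 5.47% upward and 4.17% downward. The 18 held more reads, with a median of 206 normalised reads at 2 h against 59.6 for all detained introns. A change of the same size passes more easily with more reads, and these shares were not matched for depth. The p-values are the authors', and their own response class follows the same threshold in all 3454 detained introns. The other 12 did not pass, and all 12 had log2 ratios below 0, between −0.53 and −0.04. Of all 18, called or not, 15 (83.3%) had a ratio below 0, against 50.1% of all detained introns. Several of these introns share a gene and are not independent. The median log2 ratio of the 18 was −0.19, against 0.00 for all 3454 detained introns. The 48 other member introns had no 2 h value, so these ratios cannot be set against the rest of the same transcript.

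**Figure D3:**
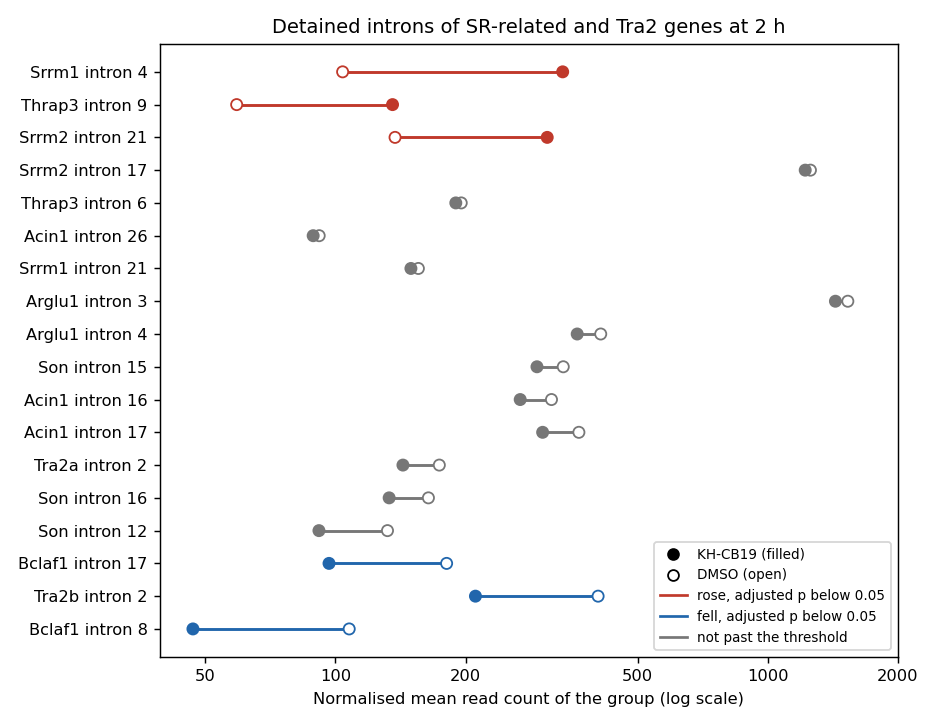
The normalised mean read count at 2 h is plotted on a log axis for each of the 18 detained introns, with KH-CB19 as filled and DMSO as open points joined by a line, in order of their log2 ratio. The 3 rises (red) go up to 335.6 reads with KH-CB19 in Srrm1 intron 4, the 3 falls (blue) go down to 46.8 reads with KH-CB19 in Bclaf1 intron 8, and the 12 grey introns all have the KH-CB19 point to the left.

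The largest change of the 18 was the rise of Srrm1 intron 4, at chromosome 4 from 134900585 to 134902230 on build mm9. The authors' deposited table gave it a normalised mean of 335.6 reads with KH-CB19 against 103.9 reads with DMSO at 2 h, which is 3.23-fold higher (log2 ratio 1.69, adjusted p = 1.62e-11). The NMD exon of 282 bases and the exon of a processed transcript that overlap this interval, as described above, contribute any reads of theirs to these means. Intron 21 of the same gene had 149 reads with KH-CB19 and 156 with DMSO, and did not pass (log2 ratio −0.06 at an adjusted p of 0.976, the authors' deposited table).

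Intron 21 of Srrm2 (chromosome 17, 23959668 to 23959969 on mm9), the first 302 bases of a coding intron of 1090 bases, rose to 309.0 normalised reads with KH-CB19, against 137.4 with DMSO. This is 2.25-fold higher (log2 ratio 1.17 at an adjusted p of 1.02e-05, the authors' deposited table). Intron 17, inside the long exon of the same gene, had 1222 reads with KH-CB19 and 1257 with DMSO (log2 ratio −0.04 at an adjusted p of 0.962, the authors' deposited table). The stretch with the most reads in Srrm2 thus had nearly equal means in both groups, and the rise was found in the detained intron downstream of it.

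In Thrap3, intron 9 (chromosome 4, 125855802 to 125856037 on mm9) had 135.5 normalised reads with KH-CB19 and 59.1 with DMSO and rose 2.29-fold (log2 ratio 1.20 at an adjusted p of 0.000471, the authors' deposited table). Intron 6 had 190 reads with KH-CB19 and 195 with DMSO, a log2 ratio of −0.04 with an adjusted p of 1 in the authors' deposited table. Srrm1, Srrm2 and Thrap3 therefore each held 1 intron that rose and 1 that did not pass, with log2 ratios 1.75, 1.21 and 1.24 apart. That difference was not tested, since no value per library was used. Of 751 genes with at least 2 detained introns, 72 (9.59%) had 1 rise and no other call, and the median range of log2 ratios within such genes was 0.52.

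Both detained introns of Bclaf1 fell. Intron 8 (chromosome 10, 20045906 to 20046969 on mm9) had 46.8 normalised reads with KH-CB19 and 107.6 with DMSO, 2.30-fold lower (log2 ratio −1.20 at an adjusted p of 0.00165, the authors' deposited table). Intron 17 (chromosome 10, 20052364 to 20053197 on mm9) had 96.6 reads with KH-CB19 and 180.8 with DMSO, 1.87-fold lower (log2 ratio −0.90 at an adjusted p of 0.0047, the authors' deposited table). They are parts of different coding introns of the gene, and each ends or begins at an NMD exon. In 8 of the 751 genes (1.07%) every detained intron fell. Thrap3, the paralogue of Bclaf1, had a rise and no fall.

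Intron 2 of Tra2b (chromosome 16, 22255191 to 22258937 on mm9) fell to 211 normalised reads with KH-CB19, against 405 with DMSO. This is 1.92-fold lower (log2 ratio −0.94 at an adjusted p of 0.000461, the authors' deposited table). Intron 2 of Tra2a had 143 reads with KH-CB19 and 174 with DMSO and did not pass (log2 ratio −0.28 at an adjusted p of 0.543, the authors' deposited table). Whether the Tra2 genes differ in their response was not tested.

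The introns of Son, Acin1 and Arglu1 did not pass. In Son the authors' normalised means were 91.6 reads with KH-CB19 and 132 with DMSO for intron 12, 293 and 337 for intron 15, and 133 and 164 for intron 16, with adjusted p-values between 0.208 and 0.648 in the authors' deposited table. Intron 12 had the lowest ratio of the introns that did not pass (log2 ratio −0.53, the authors' deposited table). For Acin1 the means were 268 reads with KH-CB19 and 316 with DMSO in intron 16, 302 and 366 in intron 17, and 88.8 and 91.7 in intron 26. Arglu1 had 1436 reads with KH-CB19 and 1534 with DMSO in intron 3, and 363 and 411 in intron 4 (log2 ratios −0.10 and −0.18, the authors' deposited table). The log2 ratios of Acin1 lay between −0.28 and −0.05 in the authors' deposited table.

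The 0 h groups show how far the same introns differed at the start. The log2 ratio of observed to expected reads differed between them by −0.28 to 0.41 for KH-CB19 minus DMSO, with a median of 0.02 over the 18 introns. Over all detained introns the 5th and 95th percentiles of this difference were −0.40 and 0.36. Intron 12 of Son, at 0.41, lay above the 95th percentile. The observed means themselves were on balance lower with KH-CB19, by a median log2 ratio of −0.37 over detained introns, and were centred on that value. After centring, intron 2 of Tra2b stood at −0.42, and introns 8 and 17 of Bclaf1 at −0.26 and −0.27. The introns that fell at 2 h were thus already below the median of all detained introns at 0 h. The median of the 18 introns was below it as well, at −0.06. Intron 16 of Son was lower still at 0 h (−0.59) and intron 15 at −0.38, without a call at 2 h. The introns that rose at 2 h stood at −0.14 in Srrm1, 0.15 in Srrm2 and 0.11 in Thrap3. These 0 h differences have no test and no replicate check.

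**Figure D4:**
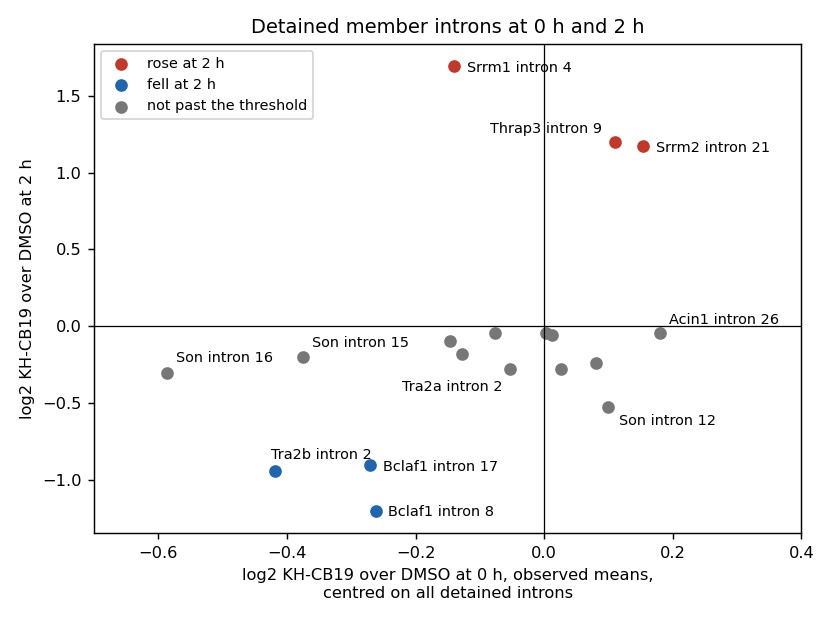
For the 18 detained introns the 2 h log2 ratio (KH-CB19 over DMSO, vertical) is plotted against that of the unscaled observed means at 0 h, centred on the median of all detained introns (horizontal). The 3 introns that fell at 2 h lie between −0.42 and −0.26 on the horizontal axis, and the 3 that rose lie between −0.14 and 0.15.

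The expected counts at 0 h also differed between genes. They are not a second measure of this difference where they add up to the observed reads of the gene. That was so in Arglu1, and in Tra2b with KH-CB19. Within a gene the ratio of expected counts, KH-CB19 to DMSO, was nearly constant, with a range of at most 0.13 on the log2 scale in the 10 genes. Centred on the median of 6476 genes, the log2 ratio was −0.39 for Tra2b, −0.35 for Son and −0.34 for Bclaf1, and −0.17 for Arglu1. It lay between −0.12 and 0.00 for Thrap3, Srrm1, Tra2a, Srrm2 and Acin1, and was 0.16 for Pnn. The 5th percentile of all genes was −0.34, and 200 genes (3.09%) were below Tra2b. What part this difference between the 0 h groups has in the 2 h ratios was not tested.

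Related genes that act with these proteins gave the following counts at 2 h, from lists drawn up with earlier results of these data known, and are to be read against the 9.64% of all detained introns that changed (5.47% rose and 4.17% fell). Of 8 detained introns of SR proteins 1 rose, intron 3 of Srsf1 (0.92 on the log2 scale, the authors' deposited table), and 5 fell, with the largest falls in introns 6 and 8 of Srsf7 and intron 9 of Srsf5 (−2.52, −1.65 and −1.76). Kinases and phosphatases of SR proteins had 0 rises and 6 falls among 13 detained introns, led by Clk1 introns 5 and 7 (−3.56 and −3.44) and Clk4 intron 10 (−2.87) in the authors' deposited table. Other SR-related proteins had 0 rises and 3 falls among 27 (11.1%, near the share over all detained introns), namely Rbm25 intron 27 (−1.66) and Scaf4 intron 8 (−1.02) in the authors' deposited table, and Rbm25 intron 18, with 33.5 normalised reads with KH-CB19 and 66.8 with DMSO. Exon junction complex genes and partners of Acin1 and Pnn had 4 detained introns, of which 0 rose and 0 fell. The median log2 ratio was −1.17 for SR proteins, −0.64 for kinases and phosphatases, 0.15 for the other SR-related proteins and −0.18 for the exon junction complex and its partners.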

How the data were processed

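The members and gene lists were chosen with earlier results of these data known. Per the submitters' processing notes, reads were placed on mouse build mm9, and the tools included Cufflinks 2.1.1, DESeq, TopHat2 2.0.9, bedtools 2.17.0, Bowtie 1.0.0 and SAMtools 0.1.19; their settings and order, and how expected counts were made, are not given in the sources used here. Per the file headers, the authors deposited observed and expected mean counts at 0 h (multiples of 0.5, hence unscaled), the normalised mean read count at 2 h (a signal, for detained introns only), log2 ratios, and adjusted p-values. Introns with few reads hold a word for low coverage. Labels describe the 2 libraries of a group as independent biological replicates, but values were used as group means, so the planned count test was not possible and no test was added. Calls use adjusted p below 0.05.

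Every intron with a 2 h value was named, and per gene the highest and lowest other intron by DMSO log2 ratio, besides those said to be named later. At most 3 introns per list and direction were named. Starts were taken as counted from 0, since only then did lengths equal annotated introns, and are printed counted from 1. A gene was placed when at least 2 introns of unique length gave 1 shared shift, in at least 80% of such introns; this placed 18245 introns in 4440 of 7016 genes, and all 55 member introns used agreed on their gene's shift. The placing was tested on simulated data. Python 3.11.15, pandas 2.3.3, numpy 2.4.6 and matplotlib 3.10.9 were used.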

Additional observations from a re-analysis of the deposited data

How the results depend on the processing

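The counts of introns that changed at 2 h (6, with 3 in each direction) were identical at an adjusted p below 0.01, for means of at least 50 normalised reads, and with overlapping introns counted once, as no detained members overlap. By genes they were 5, with 3 and 2. Log2 ratios at 2 h with pseudocounts of 1 or 10, or centred on all detained introns, kept their direction and moved by less than 1.5 times. At 0 h, requiring an observed mean of at least 50 reads left 30 introns past the threshold against 49 (25 above and 5 below, against 27 and 22), since introns below expectation have few reads. Without the Srrm2 interval inside a coding exon, an alternative added after seeing the data, 6 changed introns remained and the detained median at 0 h was 1.31 against 1.39. No paired analysis was possible because the columns carry group means without replicate numbers. Leaving out single libraries was not run for the same reason. Depth limits the introns of low coverage: 5 of 66 had no KH-CB19 value at 0 h.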
